A study of Mus musculus and Homo sapiens with 107 samples.

Results

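The genes described here are 10 secreted inflammatory signals: the cytokines IL6 (ENSG00000136244), LIF (ENSG00000128342), IL1A (ENSG00000115008) and IL1B (ENSG00000125538), the CC chemokine CCL2 (ENSG00000108691), and a group of CXC chemokines. The latter are CXCL8 (ENSG00000169429), CXCL1 (ENSG00000163739), CXCL2 (ENSG00000081041), CXCL3 (ENSG00000163734) and CXCL5 (ENSG00000163735). They were chosen by their Ensembl identifiers, 10 of the 25530 identifiers that occur in either of the RNA-seq count tables, and their symbols come from that choice, since the tables themselves hold identifiers only. All 10 have a row in the A549 table (24353 rows) and 8 have one in the H1299 table (24019 rows). IL1A and IL1B were not analysed here in H1299. A549 and H1299 are established lines of human non-small-cell lung cancer, labelled as wild type. Both are known to lack functional BRG1 (SMARCA4), which the labels do not record. Cells received BRM014, an allosteric inhibitor of the SWI/SNF ATPases BRM and BRG1, at 5 µM for 12 h, or its solvent DMSO for the same time, and each line and treatment had 3 libraries of total RNA depleted of ribosomal RNA. DMSO is given as 0.05% in the titles and as 0.5% in the treatment field. The comparison addresses how expression responds in each line when SWI/SNF ATPase activity is inhibited.

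These genes form connected signalling steps. IL-1α and IL-1β bind the IL-1 receptor and activate NF-κB, which with AP-1 and C/EBP factors induces IL6, CXCL8 and the related CXC chemokines in epithelial and tumour cells. IL-6 and LIF are cytokines of one family and signal through receptors that share gp130 and activate STAT3. CXCL8, CXCL1, CXCL2, CXCL3 and CXCL5 share the ELR motif, attract neutrophils through CXCR2 (CXCL8 also through CXCR1) and are encoded in one gene cluster, while CCL2 attracts monocytes through CCR2. SWI/SNF complexes use ATP to move or evict nucleosomes and are known for keeping enhancers accessible.

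Library totals were 40684360 to 50177678 counts in A549 with DMSO and 42417643 to 44910378 with BRM014. In H1299 they were 28412113 to 40072734 and 30602193 to 41780029. A pair of A549 BRM014 libraries carries the same column name, so these are called a and b here, beside BRM014 replicate 3. No replicates agreed within sampling noise (chi-square per degree of freedom 2.20 to 11.1). Separate cultures are not stated for the replicates, so the p-values rest on a spread between libraries that could be technical. Levels are CPM, read counts scaled to a common library total with TMM factors within each line, and are compared between treatments but not between genes, because gene lengths were not used. The cell type labels were not checked against marker genes here, since the identifiers of such genes were not paired with names.

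In A549, BRM014 split the set by direction. CXCL8 and IL6 fell 6.13-fold and 5.68-fold, and LIF and CCL2 fell by less, 1.41-fold and 1.48-fold. CXCL2, CXCL3 and CXCL5 rose, by 1.75-fold, 1.51-fold and 1.37-fold, and CXCL1 did not pass the test. In bulk RNA, fewer cells expressing a gene and less RNA of that gene per cell cannot be told apart. Changes were called at a Benjamini-Hochberg adjusted p below 0.05 in edgeR's quasi-likelihood test over all genes. By this rule 4 members fell and 3 rose among the 8 that passed the filter on low counts. IL6, one of the 4, passed it through its DMSO libraries alone, the group where it is high. Nothing is read from these counts as shares. Over all 15188 A549 genes tested, 37% changed, 19.4% lower and 17.7% higher. The same 4 members lay lower in every BRM014 library than in every DMSO library, as did 24.8% of all genes, and the same 3 lay higher in every one, as did 23.4%. The median log2 fold change of the 8 members, IL6 included, was -0.19 and that of all genes 0.02. Without IL6 the middle value would be that of CXCL1, 0.11, so nothing is read from the sign of this median. The median absolute values were 0.58 and 0.16. The members were chosen with earlier results of these data known, so nothing is read from this difference in size. The balance of rises and falls over all genes depends on scaling, 2684 higher and 2940 lower with TMM factors and 3812 and 2451 with library totals, whereas the members' directions were the same under both.

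**Figure D1:**
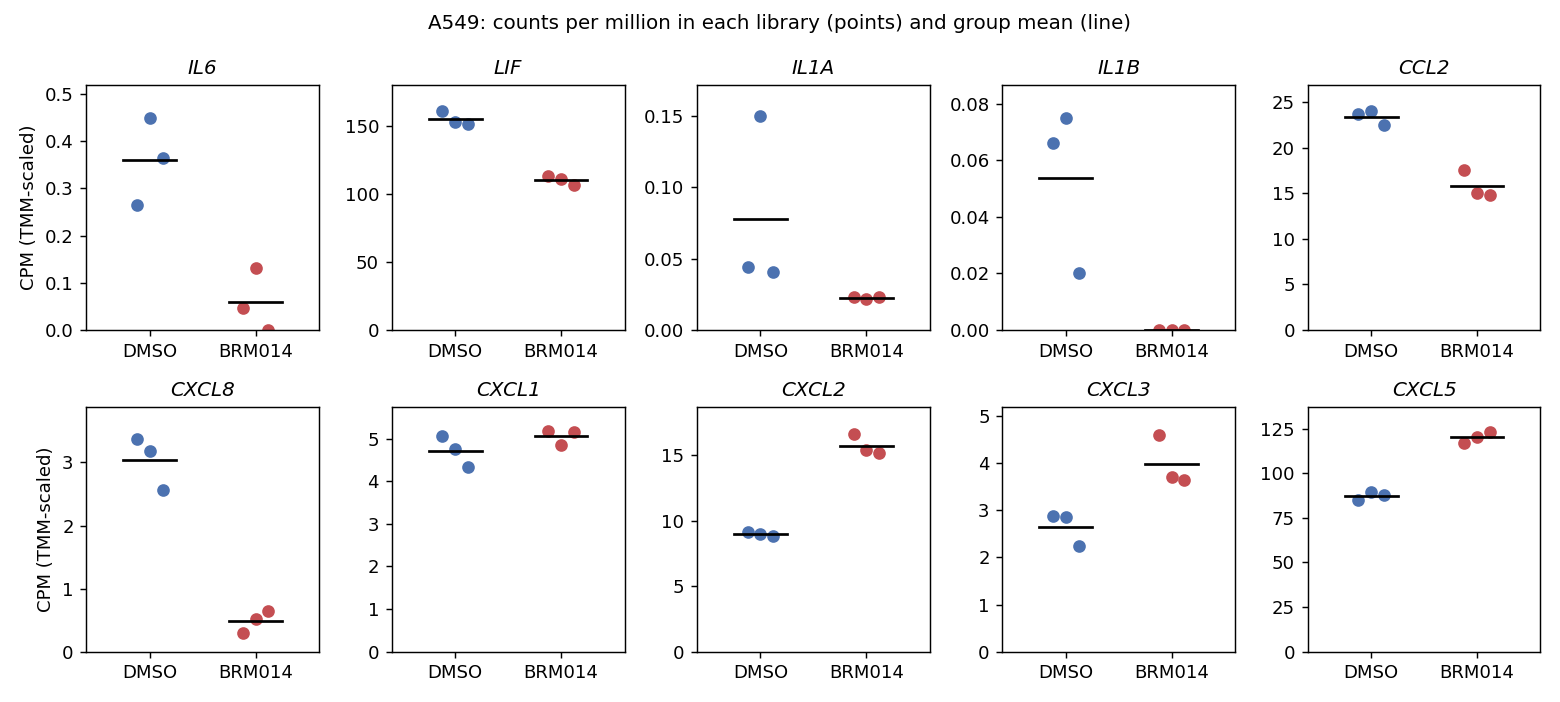
Level of each of the 10 genes in the 6 A549 libraries, in CPM on axes that start at 0. Points are libraries, black lines are means of 3. CXCL8 and IL6 in the BRM014 libraries lie below every DMSO library, CXCL2, CXCL3 and CXCL5 lie above, and CXCL1 overlaps.

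Among the gp130 cytokines, LIF, which maintains stem cells and acts as an autocrine factor in several tumours, stood at 161, 153 and 151 CPM in A549 DMSO replicates 1 to 3. It stood at 113 and 111 CPM in BRM014 libraries a and b and at 106 CPM in replicate 3. The groups were far apart, with means of 155 ± 5.29 and 109.8 ± 3.35 CPM (SD, n = 3). The log2 fold change was -0.49 (standard error 0.04, adjusted p = 2.11e-06), so the fall was narrow but well measured.

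IL6, the main acute-phase cytokine, was close to the detection limit in A549. Its raw counts were 12, 18 and 18 in the DMSO libraries and 2, 6 and 0 in the BRM014 libraries a, b and replicate 3. Every BRM014 library lay below every DMSO library. The mean level went from 0.360 ± 0.0926 to 0.0591 ± 0.0665 CPM (SD, n = 3), and the log2 fold change was -2.51 (standard error 0.59, 95% interval -3.80 to -1.22, adjusted p = 0.00567). IL6 passed the filter on low counts through its DMSO libraries alone: with BRM014, 0 of 3 libraries reached the filter's 0.228 CPM. Pooled counts were 48 and 8, a ratio of 5.69 (95% exact interval 2.67 to 13.9), and this interval, like the others on pooled counts, covers counting error only. Without library b the log2 fold change was -3.79, so the size of the fall rests on few reads, while its direction was the same without any 1 of the 6 libraries.

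The IL-1 genes, which encode the cytokines at the top of this cascade, were too rare in A549 to pass the filter. IL1A had 2, 6 and 2 counts with DMSO and 1 in each BRM014 library, 10 against 3 in all, a ratio of 3.16 (95% exact interval 0.814 to 17.9) that includes no difference. IL1B had 3, 3 and 1 counts with DMSO and 0 in each BRM014 library. Set against the 3 counts that a count of 0 allows over the 3 libraries, the 7 DMSO counts of IL1B would amount to a 2.21-fold fall with BRM014. The exact 95% interval, which also holds the counting error of the 7 DMSO counts, starts at a 1.37-fold fall. At this depth a 0 allows up to 0.0231 CPM over the BRM014 libraries. Tested without a filter, IL1B had an adjusted p of 0.0668 and IL1A one of 0.279 in edgeR, so neither change was called.

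CCL2, also known as MCP-1, stood at 23.8, 24.0 and 22.5 CPM in the A549 DMSO libraries. In BRM014 libraries a and b it stood at 17.5 and 15.1 CPM, and in replicate 3 at 14.9 CPM. No library crossed between the groups, whose means were 23.4 ± 0.822 and 15.8 ± 1.49 CPM (SD, n = 3). The log2 fold change was -0.57 (standard error 0.07, adjusted p = 7.34e-05), close in size to that of LIF.

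The ELR chemokines did not move together in A549. CXCL8, or interleukin-8, stood at 3.38, 3.17 and 2.57 CPM with DMSO (153, 127 and 127 counts). With BRM014 it stood at 0.300, 0.524 and 0.650 CPM (13, 24 and 28 counts in a, b and replicate 3). The highest BRM014 library was thus far under the lowest DMSO library. Means were 3.04 ± 0.421 and 0.491 ± 0.178 CPM (SD, n = 3), and the log2 fold change was -2.62 (standard error 0.22, 95% interval -3.10 to -2.14, adjusted p = 2.03e-06). Ordered by log2 fold change from the lowest, CXCL8 was gene 78 and IL6 gene 91 of the 15188 tested. Nothing is read from the place of IL6, which passed the filter through its DMSO libraries alone. Its log2 fold change ranged from -3.79 to -1.96 when 1 library was left out.

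CXCL2, which with CXCL1 and CXCL3 forms the GRO group of neutrophil attractants, went the other way. It stood at 9.16, 9.00 and 8.80 CPM with DMSO and at 16.6, 15.4 and 15.1 CPM with BRM014. The DMSO libraries hardly differed among themselves, and all BRM014 libraries were higher. The log2 fold change was 0.81 (standard error 0.07, adjusted p = 2.02e-06), and 96.8% of the genes tested had a lower one.

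CXCL3 rose by less and with more spread. Its A549 levels were 2.87, 2.85 and 2.24 CPM with DMSO and 4.61, 3.71 and 3.65 CPM with BRM014, with no overlap and with library a the highest. The log2 fold change was 0.59 (standard error 0.14, adjusted p = 0.00483), and 0.46 without library a. CXCL5, also known as ENA-78, stood at 84.9, 89.3 and 88.0 CPM with DMSO and at 117, 120.3 and 123 CPM with BRM014. Its rise was small and tight: means of 87.4 ± 2.25 and 120.1 ± 2.97 CPM (SD, n = 3), with a log2 fold change of 0.46 (standard error 0.04, adjusted p = 3.36e-06).

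CXCL1, the remaining GRO gene, stood at 5.06, 4.75 and 4.33 CPM with DMSO and at 5.19, 4.85 and 5.16 CPM with BRM014. These ranges overlap. Its log2 fold change was 0.11 (standard error 0.09, 95% interval -0.10 to 0.31, adjusted p = 0.408), so a change of the size seen in CXCL2 lies outside the interval, while a small rise does not. CXCL1, CXCL2 and CXCL3 are near copies in sequence, and how reads matching more than one of them were counted is not given in the sources used here, so their separate values are less certain than those of the other members.

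**Figure D2:**
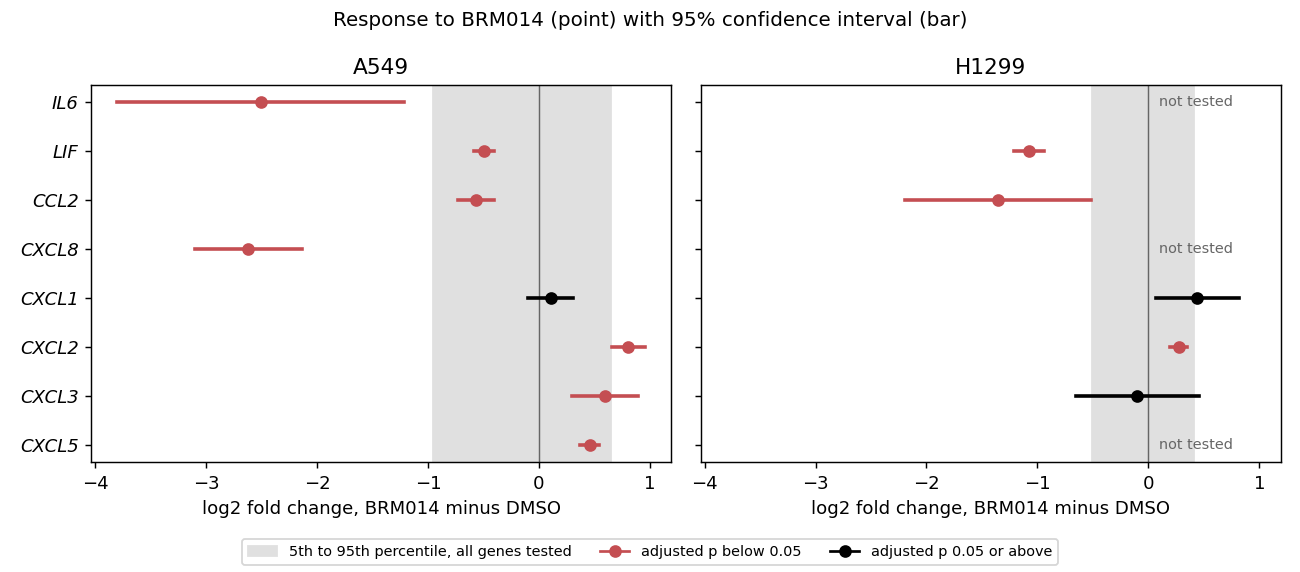
Log2 fold change, BRM014 minus DMSO, with its 95% confidence interval for the 8 genes tested in A549 and the 5 tested in H1299, and in grey the range from the 5th to the 95th percentile of all genes tested in that line. The points of IL6 and CXCL8 in A549 and of LIF and CCL2 in H1299 lie below the grey range. Those of CXCL2 in A549 and of CXCL1 in H1299 (black, not called) lie above it, and CXCL1 (black) crosses 0 in A549.

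In H1299, LIF and CCL2 fell and CXCL2 rose, CXCL1 and CXCL3 did not pass the test, and IL6, CXCL8 and CXCL5 were nearly silent. The fall of LIF was 2.11-fold and that of CCL2 2.56-fold, while the rise of CXCL2 was 1.21-fold. Thus 2 members fell and 1 rose among the 5 that passed the filter. CCL2, one of the 2, passed it through its DMSO libraries, and its call was lost in 3 of 6 fits that left out a library. Over all 14986 H1299 genes tested, 22% changed, 12.7% lower and 9.29% higher. Every BRM014 library lay below every DMSO library for 18.6% of them and above for 16.6%. The median log2 fold change was -0.10 for the 5 members, CCL2 included, and 0.00 for all genes (0.00293), with median absolute values of 0.44 and 0.10 (0.0962). Without CCL2 the middle would lie between CXCL3 at -0.10 and CXCL2 at 0.27, so nothing is read from the sign of the members' median. Nor is anything read from the members' larger median absolute value, since they were chosen with earlier results of these data known. Scaled by library totals, 2127 genes were higher and 1513 lower, against 1392 and 1904 with TMM, and the 3 called members kept their direction.

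**Figure D3:**
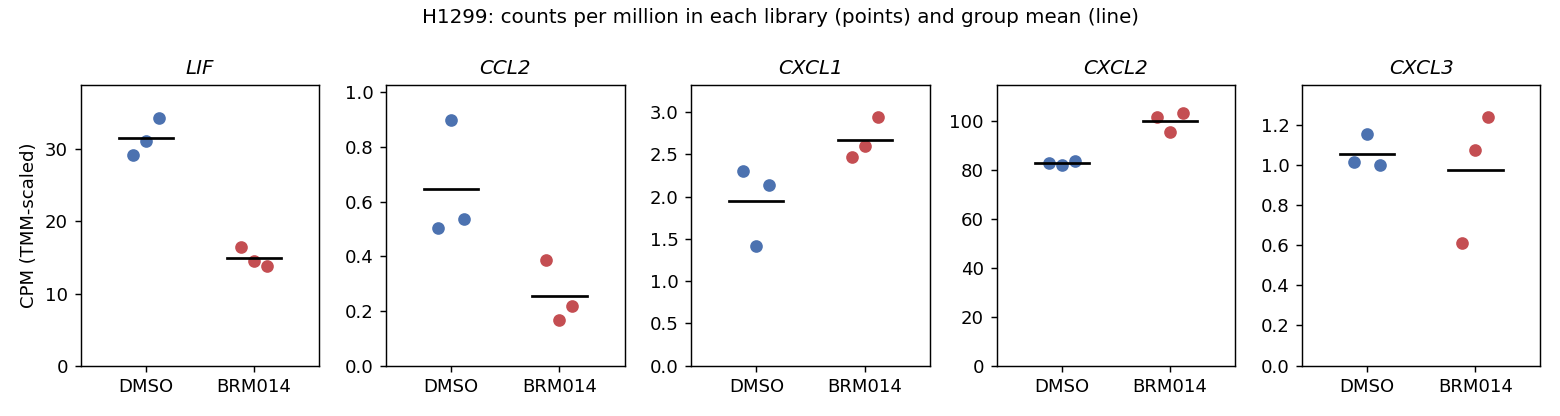
Level of the 5 genes tested in the 6 H1299 libraries, in CPM on axes that start at 0. Points are libraries, black lines are means of 3. LIF and CCL2 are lower in every BRM014 library, CXCL2 and CXCL1 higher in every one, and CXCL3 overlaps.

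LIF stood at 29.2, 31.2 and 34.4 CPM in H1299 DMSO replicates 1 to 3 and at 16.4, 14.6 and 13.8 CPM in BRM014 replicates 1 to 3. The lowest DMSO library was well above the highest BRM014 library. The mean went from 31.6 ± 2.59 to 14.9 ± 1.33 CPM (SD, n = 3), which is -1.08 as a log2 fold change (standard error 0.07, adjusted p = 3.32e-15). By log2 fold change from the lowest, LIF was gene 220 of 14986.

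CCL2 was rare in H1299, with 20, 28 and 15 counts with DMSO and 12, 7 and 7 with BRM014. In CPM this was 0.506, 0.898 and 0.535 against 0.386, 0.167 and 0.217, without overlap. The log2 fold change was -1.36 (standard error 0.41, 95% interval -2.19 to -0.52, adjusted p = 0.0146). CCL2 passed the filter through its DMSO libraries, since 1 of 3 BRM014 libraries reached the filter's 0.316 CPM. The call did not survive leaving out DMSO replicate 2 (adjusted p = 0.131), BRM014 replicate 2 (0.0869) or BRM014 replicate 3 (0.0592), although CCL2 was lower with BRM014 in each case.

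CXCL2 stood at 82.5, 81.9 and 83.5 CPM in H1299 with DMSO and at 101.4, 95.5 and 103 CPM with BRM014. The rise was small beside the level, yet larger than the spread, with means of 82.7 ± 0.806 and 99.99 ± 3.99 CPM (SD, n = 3). The log2 fold change was 0.27 (standard error 0.04, adjusted p = 4.04e-07).

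CXCL1 stood at 2.30, 1.41 and 2.14 CPM with DMSO and at 2.47, 2.60 and 2.94 CPM with BRM014 in H1299. The groups did not overlap, but DMSO replicate 2 lay apart from the other two, and the adjusted p was 0.0835 (log2 fold change 0.44, standard error 0.18). Without DMSO replicate 2 the log2 fold change was 0.26. Over all H1299 genes, 16.6% had every BRM014 library above every DMSO library. CXCL3 had 40, 36 and 28 counts with DMSO and 19, 45 and 40 with BRM014, a log2 fold change of -0.10 (standard error 0.27, 95% interval -0.65 to 0.45, adjusted p = 0.850).

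IL6, CXCL8 and CXCL5 could not be tested in H1299. IL6 had 0 counts in the 3 DMSO libraries and 1, 1 and 0 in the BRM014 libraries. CXCL8 had 1 count in DMSO replicate 1 and none elsewhere, and CXCL5 had 1 count in DMSO replicate 3 and none elsewhere. A count of 0 over the 3 DMSO libraries allows up to 0.0300 CPM, and over the 3 BRM014 libraries up to 0.0288 CPM. CXCL8 and IL6, the tested members with the deepest falls in A549, were thus at or under this floor in each H1299 group.

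Whether a gene responded differently in the lines was tested as the interaction of line and treatment in a fit of all 12 libraries, where 19.5% of 16466 genes passed. LIF and CXCL2 were the 2 members that passed among 8 tested, both with a more negative response in H1299, against 9.25% of all genes (10.2% were more positive). IL6, CXCL8 and CXCL5 are among the 8 but entered this test through A549 alone, so nothing is read from 2 of 8 as a share. The fall of LIF was deeper in H1299, by a log2 difference of -0.56 (H1299 minus A549, standard error 0.08, adjusted p = 1.43e-05). The rise of CXCL2 was smaller in H1299, by -0.51 (standard error 0.07, adjusted p = 1.56e-05). LIF was lower and CXCL2 higher with BRM014 in 3 of 3 libraries of each line, so the direction was shared and the size differed. Over all genes, every BRM014 library lay below every DMSO library in 24.8% in A549 and 18.6% in H1299, and above in 23.4% and 16.6%.

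For the other members a difference in response was not shown. CCL2 fell in both lines, and the log2 difference was -0.77 (standard error 0.36, 95% interval -1.51 to -0.03, adjusted p = 0.144). CXCL3, which passed the test in A549 alone, had a difference of -0.67 (standard error 0.29, adjusted p = 0.110), and CXCL1 one of 0.36 (standard error 0.20, adjusted p = 0.228). For IL6, CXCL8 and CXCL5 the interaction rests on 2, 1 and 1 counts in H1299 and has no usable size. Their adjusted p-values were 0.134, 0.788 and 0.382.

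Without the inhibitor the lines differed in all 8 members tested, as did 85.7% of all genes (42.9% higher in H1299 and 42.8% lower), so the number of members is near the background. IL6, CXCL8 and CXCL5 entered this test through A549 alone, since 0 of 3 H1299 libraries of either treatment reached the filter minimum of that line, so for them a difference was fixed by the filter. CXCL2 was the 1 member higher in H1299, by 7.86-fold (log2 difference 2.97, standard error 0.05, adjusted p = 1.26e-24). LIF was 5.75-fold, CXCL3 2.93-fold and CXCL1 2.79-fold higher in A549. CCL2 was 42.7-fold higher in A549 (log2 difference -5.42, standard error 0.14, adjusted p = 1.22e-21). Within the GRO group, then, CXCL2 was higher in H1299 than in A549, while CXCL1 and CXCL3 were each higher in A549 than in H1299.

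Of these lines CXCL5 was nearly confined to A549, with 11775 counts over the A549 DMSO libraries against 1 over the H1299 DMSO libraries, a ratio per total count of 8581 (95% exact interval 1539.8 to 338950). CXCL8 had 407 counts against 1, a ratio of 297 (52.9 to 11743). IL6 had 48 against 0, which would be 11.7-fold higher in A549, taking 3 counts over the 3 libraries as the floor. The exact 95% interval, which adds the counting error of the 48, starts at 9.12-fold. Line, growth medium and PCR cycles (9 for A549, 8 for H1299) cannot be told apart in these differences. Scaling by library totals would move the median of all genes by 0.23 on the log2 scale toward H1299, and the order of the lines stayed the same for these 8 genes.

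Ratios of 2 genes within a library do not depend on scaling between libraries. They were chosen after the values had been seen, and with 3 libraries against 3 an exact two-sided permutation test cannot give a p below 0.1, so they are given as description. In A549 the count ratio of CXCL8 to CXCL5 was 0.0348 ± 0.00533 with DMSO and 0.00407 ± 0.00139 with BRM014 (SD, n = 3), 8.56-fold lower and without overlap. The ratio of CXCL2 to CXCL1 was 1.91 ± 0.111 with DMSO and 3.10 ± 0.148 with BRM014, and that of CXCL3 to CXCL1 went from 0.562 ± 0.0409 to 0.787 ± 0.0927, again without overlap. As description, then, the chemokine genes in these ratios changed unequally in A549, whatever the scaling. The ratios among CXCL1, CXCL2 and CXCL3 are less certain, because these genes are near copies in sequence.

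The ratio of CXCL2 to LIF rose in both lines, though the response of each gene differed between them. In A549 the larger part was the rise of CXCL2 (log2 fold change 0.81, with LIF at -0.49). In H1299 it was the fall of LIF (-1.08, with CXCL2 at 0.27). The ratio rose 2.46-fold in A549, from 0.0581 ± 0.00101 to 0.143 ± 0.00393, and 2.56-fold in H1299, from 2.63 ± 0.195 to 6.73 ± 0.650 (SD, n = 3). By contrast the ratio of CXCL2 to CXCL1 in H1299 was 44.3 ± 12.0 with DMSO and 37.6 ± 3.07 with BRM014, with overlapping libraries. That of CXCL3 to CXCL1 in H1299 was 0.575 ± 0.211 with DMSO and 0.360 ± 0.0983 with BRM014, lower without overlap, where in A549 it was higher. The H1299 groups were barely apart: 0.440 in DMSO replicate 1, the lowest, and 0.421 in BRM014 replicate 3, the highest. This ratio rests on 19 to 45 CXCL3 counts per library, and neither gene was called in H1299. The difference between the lines was not tested. The ratio of CXCL2 to CXCL3 overlapped between treatments in A549 (3.42 ± 0.430 and 3.96 ± 0.316) and in H1299 (78.7 ± 6.76 and 112.8 ± 46.3). The ratio of LIF to CCL2 in A549 was 6.61 ± 0.223 with DMSO and 6.97 ± 0.476 with BRM014, with overlap.

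**Figure D4:**
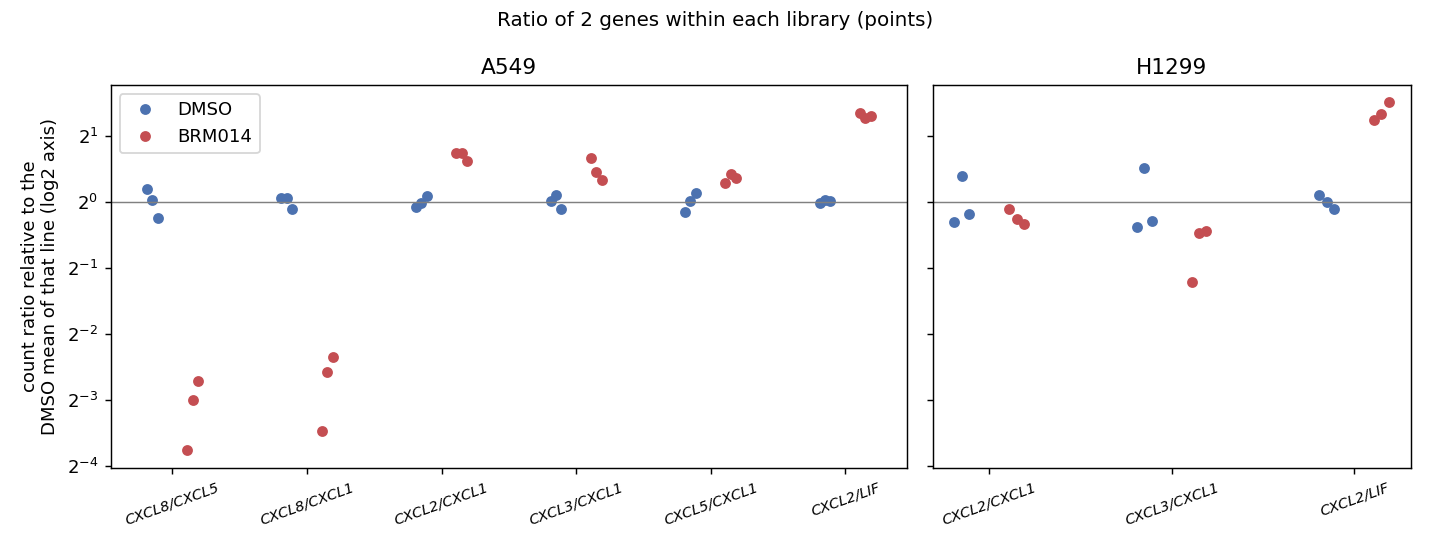
Count ratio of 2 genes in each library, divided by the mean ratio of that line's DMSO libraries, on a log2 axis. In A549 the ratios of CXCL8 to CXCL5 and to CXCL1 drop in all 3 BRM014 libraries and those of CXCL2, CXCL3 and CXCL5 to CXCL1 rise, while the ratio of CXCL2 to LIF rises in both lines.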

How the data were processed

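The deposited values are whole-number read counts for each gene, not normalized by the authors, in 1 table per line. The submitters' processing notes name build hg38, STAR 2.7.3a, Bowtie 1.2.2, cutadapt 1.14, DESeq2 and featureCounts. Annotation and strand setting were not given in the sources used here, so overlapping and antisense genes are uncertain. Spike-ins were added per cell number, per the labels' protocols, and were not used here, so all differences are relative to the other RNA of a library. Of 107 samples, 12 were used and 95 were not analysed here.

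Counts were fitted over whole tables in R 4.3.3 with edgeR 4.0.16: filterByExpr (minimum count 10, total 15), TMM factors, two-sided quasi-likelihood tests and Benjamini-Hochberg adjustment at 0.05. Each line was fitted alone; the interaction and the lines in DMSO used all 12 libraries over 22842 shared identifiers. Standard errors were derived from the log2 fold change and the square root of its F. Intervals on pooled counts are exact (95%), and the floor for a count of 0 is 3 counts. Steps were tested on simulated data, with changes put only into genes above a minimum mean count. Rarer members, such as IL6 in A549 and CCL2 in H1299, are not covered by that check. The members and lists were chosen with earlier results of these data known. All 10 members were to be named; further pathway lists, fixed by symbol, were not tested, because the name tables matched 0 identifiers. The alternatives included DESeq2 1.42.0 and limma-voom (limma 3.58.1).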

Additional observations from a re-analysis of the deposited data

Results flagged for a closer look

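The response of LIF to BRM014 stands out because it differed between the lines in the interaction test, by -0.56 on the log2 scale (H1299 minus A549, adjusted p = 1.43e-05 in edgeR). LIF was lower with BRM014 in 3 of 3 libraries of each line, as were 24.8% of all genes in A549 and 18.6% in H1299. Over 18 alternatives the interaction difference of LIF ranged from -0.62 to -0.50. The response of CXCL2 also differed by the interaction test, by -0.51 on the log2 scale (adjusted p = 1.56e-05). CXCL2 was higher with BRM014 in 3 of 3 libraries of each line, as were 23.4% of all genes in A549 and 16.6% in H1299. Over 18 alternatives the interaction difference of CXCL2 ranged from -0.55 to -0.47. No explanation was tested for either.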

How the results depend on the processing

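The members' log2 fold changes were recomputed under scaling with DESeq2 size factors or library totals, DESeq2, limma-voom, no filter, a filter of 5 CPM in 3 libraries, and without each library in turn. For the lines in DMSO these include fits without a BRM014 library, which that contrast does not compare and which hardly moved it. They also include IL6, CXCL8 and CXCL5 in that contrast, where a difference was fixed by the filter. The share of values kept is therefore no measure of stability. Of 433 values in all, 428 kept their direction and their side of the threshold. The exceptions were CCL2 in H1299, which lost its call without each of the 3 libraries named above (log2 fold changes -1.05, -1.09 and -1.27), CXCL3 in H1299, not called in any setting, which ranged from -0.29 without BRM014 replicate 3 to 0.12 without BRM014 replicate 1, and the interaction of IL6, which passed in limma-voom (3.95, adjusted p = 0.0109) and rests on 2 H1299 counts. That made 1 member with a more positive response in H1299, against 0 in edgeR; DESeq2 gave IL6 no adjusted p there. By the unadjusted p of edgeR, IL6 (0.0380) was the 1 member below 0.05 in this direction. In the other direction CXCL3 (0.0285) and CCL2 (0.0418) were below 0.05, beside LIF and CXCL2. IL6, CXCL3 and CCL2 did not pass after adjustment, so nothing is read from the unadjusted p of IL6. The 5 CPM filter tests fewer members. It left 4 changed and 2 lower in A549 (7 and 4 in the main test), 1 lower in H1299 (2), and 4 different and 3 lower in H1299 than in A549 in DMSO (8 and 7). Without 1 library, 1 to 2 members were lower in H1299, and 7 changed in A549 in each case. With the replicate number as a replicate block, H1299 gave 3 changed members, as without it. Deviations from the group means correlated at -0.0240, -0.0282 and 0.00768 between H1299 libraries of equal number, so the numbers do not pair them. The block was not run for A549 or the interaction, since libraries a and b carry no number. Depth limits IL6 and the IL-1 genes in A549 and CCL2, CXCL3, IL6, CXCL8 and CXCL5 in H1299.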
